A study of Mus musculus with 5 samples.

Results

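The genes described are 10 regulators of tissue-specific alternative splicing, namely Mbnl1, Mbnl2, Mbnl3, Rbfox1, Rbfox2, Celf1, Celf2, Nova1, Esrp1 and Esrp2, out of 21887 protein-coding genes whose spans were compared with the peaks. They were chosen by name, as RNA-binding proteins of muscle, neurons and epithelium, and all 10 were found in the RefSeq gene table. The data are lists of broad peaks of H3K36me3, a histone mark, in mTEClo, medullary epithelial cells of the thymus sorted as low for CD80, from wild-type (WT) mice of the B6 strain. The same antibody was used for 2 ChIP libraries, 1 in each of the experiments the labels call series 1 and 2. The 3 inputs, without antibody, were 2 in series 1 and 1 in series 2. No treatment is named for any library, and the age of the mice is not given in the sources used here. The cells were sorted from single animals, but no library is tied to an animal, so how far the libraries differ for technical reasons is not known.

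Alternative splicing lets a gene yield different mRNAs in different tissues, and RNA-binding proteins decide many of these choices by binding near an exon and favouring its use or its skipping. Proteins of the Mbnl (muscleblind-like) and Celf families act on many of the same exons, often in opposite directions, as striated muscle matures. Rbfox proteins bind the RNA word GCAUG in brain and muscle, Nova1 is a neuronal regulator, and Esrp1 and Esrp2 maintain the exon choices of epithelial cells. H3K36me3 is deposited by the methyltransferase Setd2 as it travels with elongating RNA polymerase II, and it is usually found along the bodies of transcribed genes, more toward their 3′ end. Medullary thymic epithelium is of interest for such genes because it is an epithelium that also transcribes many genes of other tissues.

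The lists held 7231 peaks in series 1 and 10243 in series 2, with median widths of 483 and 222 bp. The authors gave each peak a whole-number score, with medians of 21 and 16 and a lowest value of 10 in both lists. It ranks peaks within a list and is not comparable between lists, which were called against different inputs. No read counts were used, so the depth is unknown. Where a gene had no peak, the mark may still have been there below the limit of the peak call, and fewer cells carrying the mark and less of the mark per cell cannot be told apart. Of 8 markers of medullary epithelium, 5 had a peak in at least 1 series and 3, Krt5, Itga6 and Lamb3, in both, while Epcam, Krt14 and Cd40 had none. On average 31.6% of genes as long as these 8 had a peak in at least 1 series. Of 4 markers of mature medullary epithelium (28.2% of genes as long as they are), 2 had one, Cd80 in series 2 alone and Ciita in both. Of 4 markers of cortical epithelium (29.6%), only Ly75 had one, in both series. None of 5 thymocyte markers (25.8%), 7 skeletal muscle markers (18.9%) and 5 fibroblast and endothelial markers (39.6%) had one. Of 6 neuronal markers (47.8%) 2 had one, Syt1 and Map2, both in series 1 alone. Many of these markers are short, so their counts alone say little about which cells were present.

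Of the 10 genes, 7 held a peak in at least 1 library and 3 held one in both. In at least 1 library, 27.4% of all protein-coding genes had a peak. Among genes of like length, described below, it was 64.6% on average, so 7 of 10 lay near that level. A gene was counted when at least 1 bp of a peak fell inside its span. In series 1, 5 of the 10 were counted (exact binomial 95% interval 18.7 to 81.3%, counting error only), against 16.3% of all protein-coding genes. Such intervals treat the 10 genes as alike, although they differ greatly in length, and give no test against all genes. In series 2 it was again 5 of 10, with the same interval, against 19.5% of all genes. Only Mbnl2, Rbfox1 and Celf2 had a peak in both series, 3 of 10 (6.67 to 65.2%) against 8.42%. Mbnl1 and Celf1 had a peak in series 1 alone, and Rbfox2 and Esrp1 in series 2 alone. Mbnl3, Nova1 and Esrp2 had none.

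These counts have to be read against gene length. The 10 genes had a median span of 138.8 kb, ranging from 6.88 kb for Esrp2 to 1528 kb for Rbfox1, while the median over all protein-coding genes was 17.2 kb. Each gene was therefore set beside genes of like length, from 0.8 times its span to its span divided by 0.8. Averaged over the 10 genes, 44.0% of these genes were hit in series 1, 52.9% were hit in series 2 and 32.3% in both. The 10 genes as a group, with 50%, 50% and 30%, thus lay near the level of other genes as long as they are. The plot against genes of like length shows this gene by gene.

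**Figure D1:**
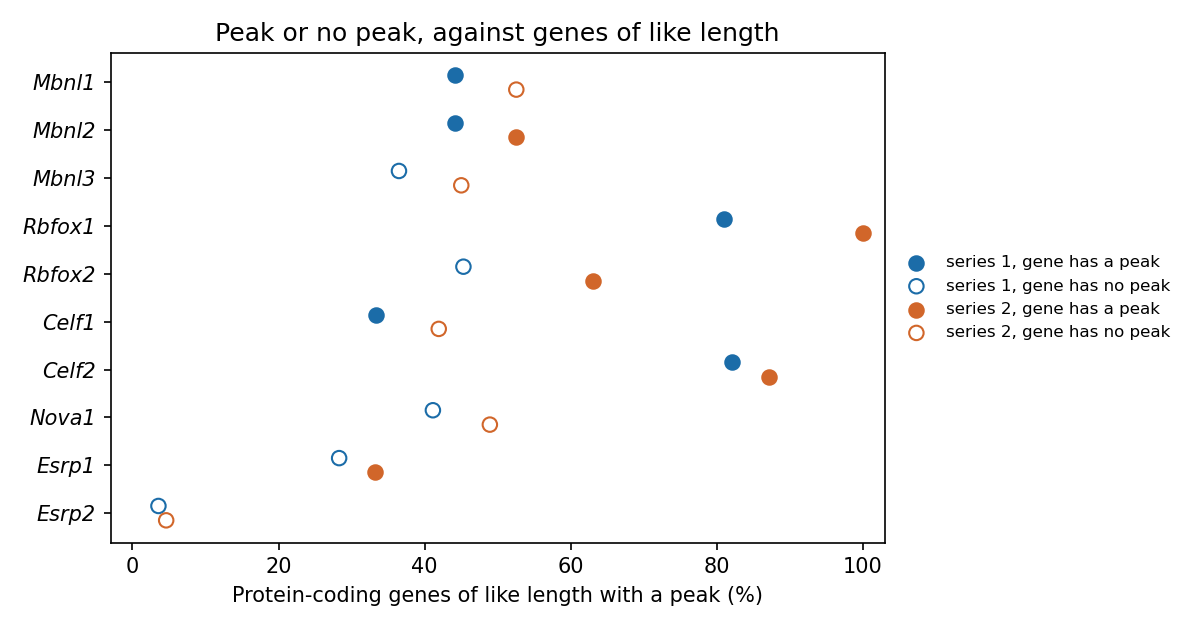
Share of protein-coding genes of like length that had a peak (x axis, %) for each of the 10 genes (rows), with series 1 in blue and series 2 in orange. Filled circles mark genes that had a peak themselves and open circles genes that had none; Rbfox1 and Celf2 lie far to the right with filled circles in both series, and Esrp2 far to the left with open ones.

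The peaks of the 10 genes were 13 in series 1 and 14 in series 2, and all 27 lay wholly inside the gene. None of them shared a base with a peak of the other list. With 0 of 13 and 0 of 14, shares of up to 23.1% and 21.4% remain possible (3 counts of the total), and over the whole lists 4.98% of series 1 peaks and 3.52% of series 2 peaks touched the other list, so a share of that size was not detectable here. The peak nearest to one of the other series was in Mbnl2, at 5.53 kb. In Rbfox1 the closest pair lay 26.7 kb apart and in Celf2 127.8 kb apart. A peak in both series therefore meant, for these 3 genes, peaks at different places.

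Place along the gene could be given 5′ to 3′ for the 7 genes with a strand in the promoter table. There 11 of 13 series 1 peaks and 6 of 12 series 2 peaks had their midpoint in the 3′ part, past the middle of the span. Over all genes of at least 50 kb with a strand, 60.5% and 57.8% of peaks lay there. Rbfox1 alone held 7 of the 13 series 1 peaks and 6 of the 12 series 2 peaks, so these counts rest largely on 1 gene. No peak midpoint of the 7 genes was closer than 36.9 kb to the 5′ end of the span. The map of peaks shows them spread over gene bodies, with none near the 5′ end of the genes that have a strand.

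**Figure D2:**
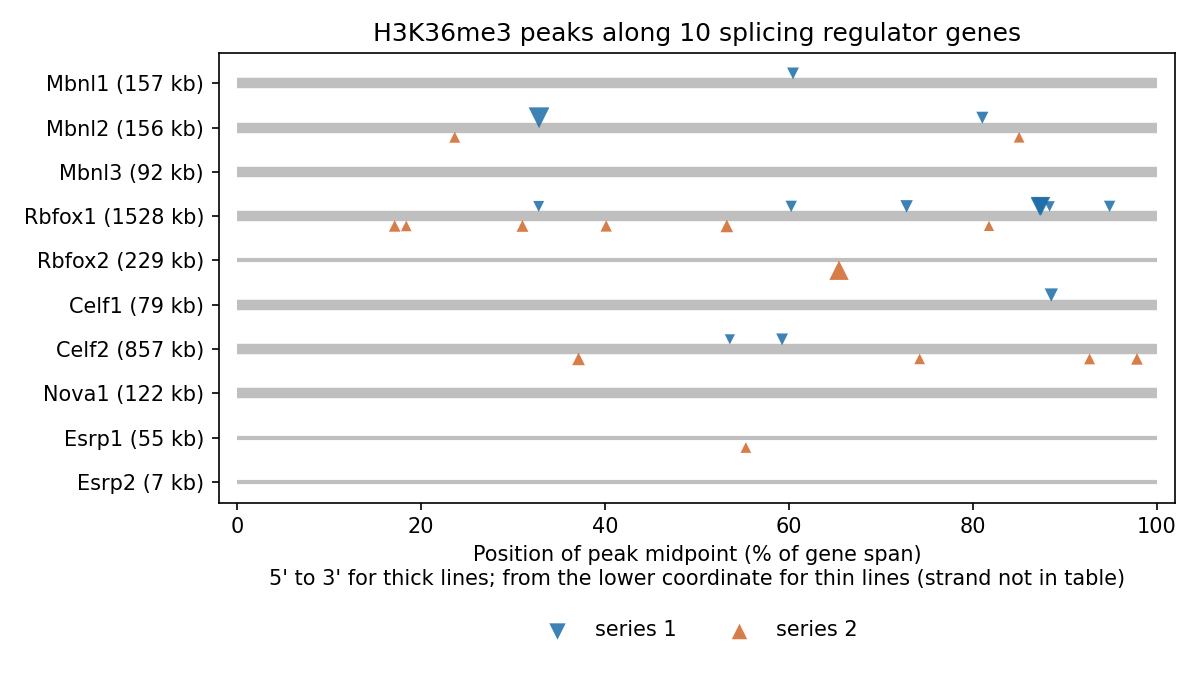
Position of each peak midpoint along the gene span (x axis, %) for the 10 genes, with series 1 peaks as blue triangles above the line and series 2 peaks as orange triangles below it; larger triangles have higher scores. Peaks of the 2 lists do not coincide in any gene, and Mbnl3, Nova1 and Esrp2 carry none.

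The annotated start sites that could be checked, those of 7 of the 10 genes, were free of peaks in both lists. The RefSeq promoter table (GRCm38.p6) holds 13 windows, each from 250 bases before to 50 after a start, for Mbnl1, Mbnl2, Mbnl3, Rbfox1, Celf1, Celf2 and Nova1. None of the 13 touched a peak, as was the case for nearly all windows of the table: of 32851 windows, 16 touched a series 1 peak and 27 a series 2 peak. Rbfox2, Esrp1 and Esrp2 were not matched there. The windows below are printed because they are the 2 starts of Celf2 nearest to a peak of each series and the only start of Mbnl2, the gene with 2 peaks in each list. Each is written 5′ to 3′ on the strand of its gene, with capitals at every CG dinucleotide, which reads the same on both strands.
Celf2, minus strand, chr2:7081253-7081552: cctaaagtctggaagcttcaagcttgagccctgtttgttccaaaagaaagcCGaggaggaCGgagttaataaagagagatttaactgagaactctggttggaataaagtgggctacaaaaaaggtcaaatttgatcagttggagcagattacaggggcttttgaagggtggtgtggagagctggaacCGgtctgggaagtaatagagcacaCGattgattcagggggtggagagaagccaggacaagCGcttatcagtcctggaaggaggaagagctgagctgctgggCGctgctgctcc
Celf2, minus strand, chr2:6871986-6872285: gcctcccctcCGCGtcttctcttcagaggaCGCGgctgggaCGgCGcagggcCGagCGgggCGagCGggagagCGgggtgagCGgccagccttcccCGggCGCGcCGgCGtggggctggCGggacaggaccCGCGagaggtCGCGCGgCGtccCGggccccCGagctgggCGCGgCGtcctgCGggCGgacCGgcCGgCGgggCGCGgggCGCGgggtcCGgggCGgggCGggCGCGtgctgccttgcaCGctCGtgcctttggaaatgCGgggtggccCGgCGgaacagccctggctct
Mbnl2, plus strand, chr14:120275419-120275718: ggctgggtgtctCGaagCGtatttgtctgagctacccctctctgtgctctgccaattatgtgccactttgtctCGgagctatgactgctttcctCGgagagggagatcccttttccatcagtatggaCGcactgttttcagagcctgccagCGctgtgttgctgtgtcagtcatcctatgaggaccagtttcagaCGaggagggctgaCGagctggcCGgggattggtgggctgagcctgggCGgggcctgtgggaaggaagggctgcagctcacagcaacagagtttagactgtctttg
The Celf2 window at 7081253 lay 2.40 kb from the widest series 2 peak of the gene and held 6 CG, near the median of 7 over all windows. The Celf2 window at 6871986, whose nearest series 1 peak was 16.6 kb away, held 48 CG, more than 98.8% of all windows. The Mbnl2 window held 10 CG, and the nearest peak was 36.8 kb away in series 2 and 51.1 kb in series 1. The other windows ranged from 2 CG at the outer start of Mbnl1 to 41 at its inner one.

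Among the muscleblind genes, Mbnl2 carried peaks in both libraries, Mbnl1 in a single library and Mbnl3 in neither. These proteins promote adult muscle and brain exon choices, and their sequestration by expanded CUG repeats underlies myotonic dystrophy. Mbnl2, on chromosome 14 from 120275652 to 120431698 (mm10), had 2 peaks in each series, which covered 0.467% of the gene in series 1 and 0.760% in series 2, or 0.613% ± 0.208 (SD, n = 2). Both values were above the covered share pooled over genes of like length, which was 0.287% and 0.206%. That pool includes genes without a peak, as only 44.2% were hit in series 1 and 52.6% in series 2. A gene with peaks is therefore favoured in this comparison. In series 1 the peaks of Mbnl2 were chr14:120326743-120327025, with a score of 73, above 97.9% of all scores of that list, and chr14:120401852-120402296, with a score of 18. In series 2 they were chr14:120312479-120312703, with a score of 13, and chr14:120407828-120408788, 961 bp wide with a score of 12, close to the lowest of the list. The first of these series 2 peaks also lay in Gm52122, a long non-coding RNA gene inside the span of Mbnl2, so it counts for either gene. Each series thus had an early and a late peak in Mbnl2, 14.0 kb and 5.53 kb from its counterpart, and the high score belonged to series 1 only.

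Mbnl1, the main muscleblind protein of muscle, has nearly the same length, 157.2 kb against 156.0 kb for Mbnl2. It lies on chromosome 3 from 60472559 to 60629750 and had 1 peak in series 1, chr3:60567076-60568046, 971 bp wide with a score of 17, over 0.618% of the span. It had none in series 2, where the nearest peak was 17.7 kb before the gene. Its mean was 0.309% ± 0.437 (SD, n = 2), so it cannot be separated from 0 or from Mbnl2 with these libraries. Of genes of its length, 44.2% were hit in series 1 and 52.6% in series 2. Mbnl3, the family member linked to immature muscle and placenta, spans 92.5 kb of the X chromosome from 51113494 to 51205990. It had no peak, and the nearest ones lay 106.3 kb away in series 1 and 182.7 kb away in series 2. Of genes of like length, 59.2% had a peak in at least 1 series, so a gene of its length without any was common.

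Celf1 and Celf2 encode proteins that bind GU-rich RNA and act in splicing and, for Celf1, in mRNA decay. Celf1, on chromosome 2 from 90940259 to 91019497, had the highest covered share of any of the 10 genes in a single series. Its only peak was in series 1, chr2:91009884-91010900, 1017 bp wide with a score of 24, over 1.28% of the span. It was centred 9.11 kb before the 3′ end of the gene. In series 2 Celf1 had no peak, and the nearest one, 32.2 kb before the gene, lay in Kbtbd4. The mean of 0.642% ± 0.908 (SD, n = 2) therefore rests on series 1. Celf2, on chromosome 2 from 6539694 to 7396341, is 856.6 kb long. It carried 2 series 1 and 4 series 2 peaks. They covered 0.112% and 0.227% of the span, or 0.169% ± 0.0814 (SD, n = 2), against 0.124% and 0.0820% pooled over 78 genes of like length. Of those 78, 71.8% had a peak in both series, so that having one says little about Celf2. In series 1 its scores were 17 and 10, and in series 2 they ranged from 12 to 21. The widest series 2 peak, chr2:7077676-7078897, 1222 bp with a score of 21, is the one downstream of the first printed start, while the 2 series 1 peaks lay just past the middle of the gene, 48.2 kb apart.

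The Rbfox genes differed in length and in what they carried. Rbfox1, a regulator of neuronal and muscle exons on chromosome 16 from 5884793 to 7412480, is 1528 kb long. It carried 7 series 1 peaks covering 0.204% of the gene and 6 series 2 peaks covering 0.249%, or 0.227% ± 0.0322 (SD, n = 2). Only 21 other protein-coding genes were of like length, and their highest mean was 0.214%. Pooled over the 21, the covered share was 0.0966% in series 1 and 0.0797% in series 2. All 21 were hit in series 2 and 81.0% in series 1, so the presence of a peak is not a distinction at this length. The covered share of Rbfox1 was above that of 85.7% of the 21 in series 1 and of 100% in series 2. The highest mean of the 21 lay within the SD of the Rbfox1 mean.

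The peaks of Rbfox1 were placed differently in the lists. In series 1, 6 of the 7 lay past the middle of the span, and 3 of them fell close together, chr16:7217446-7218005 with a score of 54, chr16:7219369-7219778 with a score of 59 and chr16:7233881-7234277 with a score of 11. The first pair was separated by 1.36 kb, and its scores were above 95.0% and 96.1% of the list. In series 2, 4 of the 6 lay before the middle, and a pair of wide peaks, chr16:6146081-6147215 and chr16:6165318-6166362, of 1135 and 1045 bp, lay 18.1 kb apart. The scores of series 2 ran from 10 to 21, so no peak there matched the series 1 pair in rank or place.

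Rbfox2, a family member used broadly and also in epithelial and mesenchymal exon choices, lies on chromosome 15 from 77078990 to 77308434. It had a single peak, in series 2, chr15:77229021-77229244, with a score of 62, above 98.7% of all scores of that list and the highest of any series 2 peak in the 10 genes. The peak was only 224 bp wide, within 9 bp of the narrowest width in the list, 216 bp, as were 65.6% of all series 2 peaks. It covered 0.0976% of the span, below the 0.174% pooled over genes of like length. In series 1 the nearest peak was 79.1 kb from the gene. The mean over both series was 0.0488% ± 0.0690 (SD, n = 2).

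The neuronal regulator Nova1, on chromosome 12 from 46697895 to 46819480, had no peak and was the gene farthest from any. The nearest peaks lay 637.1 kb away in series 1 and 572.2 kb away in series 2, outside protein-coding genes. Its length of 121.6 kb would not by itself make this rare, since 64.8% of genes of like length had a peak in at least 1 series and the rest had none.

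Of the epithelial regulators, Esrp1 had a peak in series 2 alone and Esrp2 had none. Esrp1, on chromosome 4 from 11331933 to 11386783, had 1 peak in series 2, chr4:11361979-11362564, 586 bp wide with a score of 12. It covered 1.07% of the 54.9 kb span, more than in 90.5% of genes of like length in that series. Only 33.2% of those genes had any series 2 peak, so a single peak already ranked above most of them. The score of the Esrp1 peak was above only 1.92% of the list. In series 1 Esrp1 had none, the nearest peak being 43.6 kb away in Dpy19l4, and the mean was 0.534% ± 0.755 (SD, n = 2). Esrp2, on chromosome 8 from 106130319 to 106137193, had no peak in either series. It is the shortest of the 10, and only 7.32% of genes of like length had a peak in at least 1 series, so having none was common at this length. The nearest series 2 peak, 16.4 kb away, lay in Nfatc3, whose span overlaps Esrp2.

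**Figure D3:**
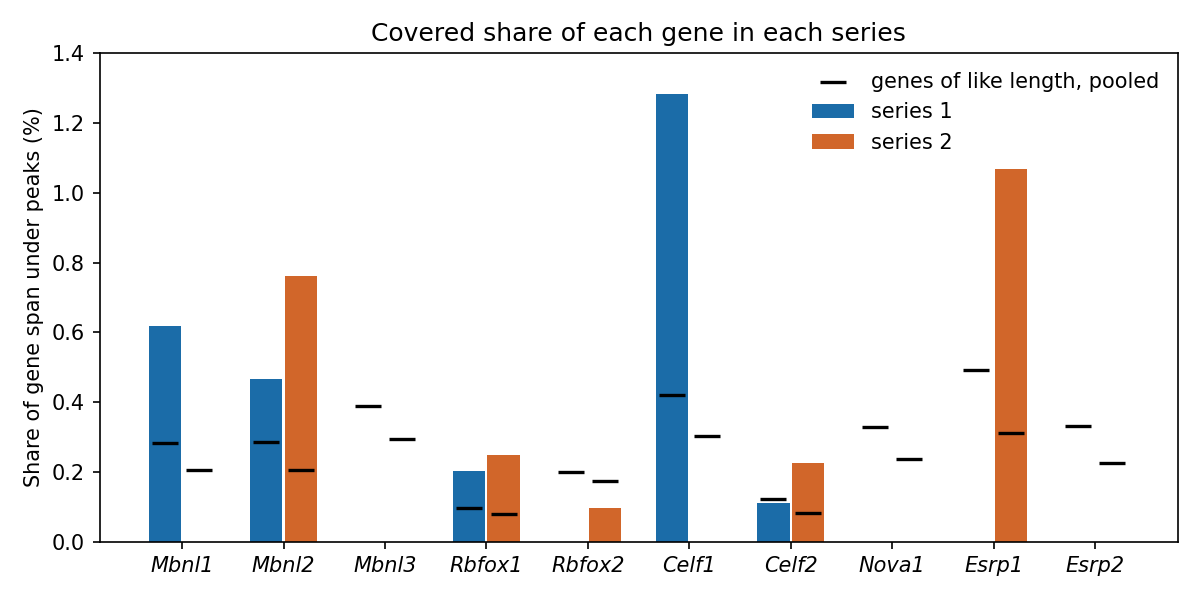
Share of each gene's span under peaks (y axis, %) in series 1 (blue bars) and series 2 (orange bars), 1 library each, with black lines for the share pooled over genes of like length. Celf1 reached 1.28% in series 1 and Esrp1 1.07% in series 2, each with no bar in the other series, while Mbnl2, Rbfox1 and Celf2 have a bar in both.

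Ordered by mean covered share, the genes ran Celf1, Mbnl2, Esrp1, Mbnl1, Rbfox1, Celf2 and Rbfox2, followed by Esrp2, Mbnl3 and Nova1 at 0. In this order no gene differed from the next by more than the larger of their SDs, except Celf2 from Rbfox2, by 0.121 percentage points against 0.0814. With 2 libraries this is a description and not a test. For a gene with a peak in 1 series alone, the SD is larger than the mean, so the next gene could not differ from it by more. The median covered share of the 10 genes was 0.0560% in series 1 and 0.0488% in series 2, and the median over all genes was 0 in both. Pooled over their 3.28 Mb, the 10 genes were covered over 0.207% and 0.236%, against 0.315% and 0.224% for all protein-coding genes.

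Scores in the 10 genes had medians of 17 in series 1 and 14 in series 2, against 21 and 16 over the whole lists, but a few ranked high. Of their 13 series 1 peaks, 5 had a score of at least 20. In series 1, 3 had a score of at least 50, those of Mbnl2 and the Rbfox1 pair, each above at least 95.0% of the list. Of the 14 series 2 peaks, 3 reached 20, in Rbfox1, Celf2 and Rbfox2. Only that of Rbfox2 reached 50, above 98.7% of the list. At 50, 2 of the 10 genes were counted in series 1 (1.48% of all genes), 1 in series 2 (0.763%) and 0 in both (0.0868%), and 0 had at least 1% of their span covered in both series (2.28%). In the whole lists 55.8% of series 1 and 35.7% of series 2 peaks had a score of at least 20. With such peaks alone, 3 of the 10 genes were counted in series 1 (10.9% of all genes), 3 in series 2 (9.01%) and Rbfox1 alone in both (3.3%). Genes of like length were not counted at these cut-offs. The shares of all genes therefore take no account of the greater length of the 10, and no enrichment can be read from them. Narrow peaks, within 9 bp of the narrowest, made up 7 of the 14 in series 2.

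**Figure D4:**
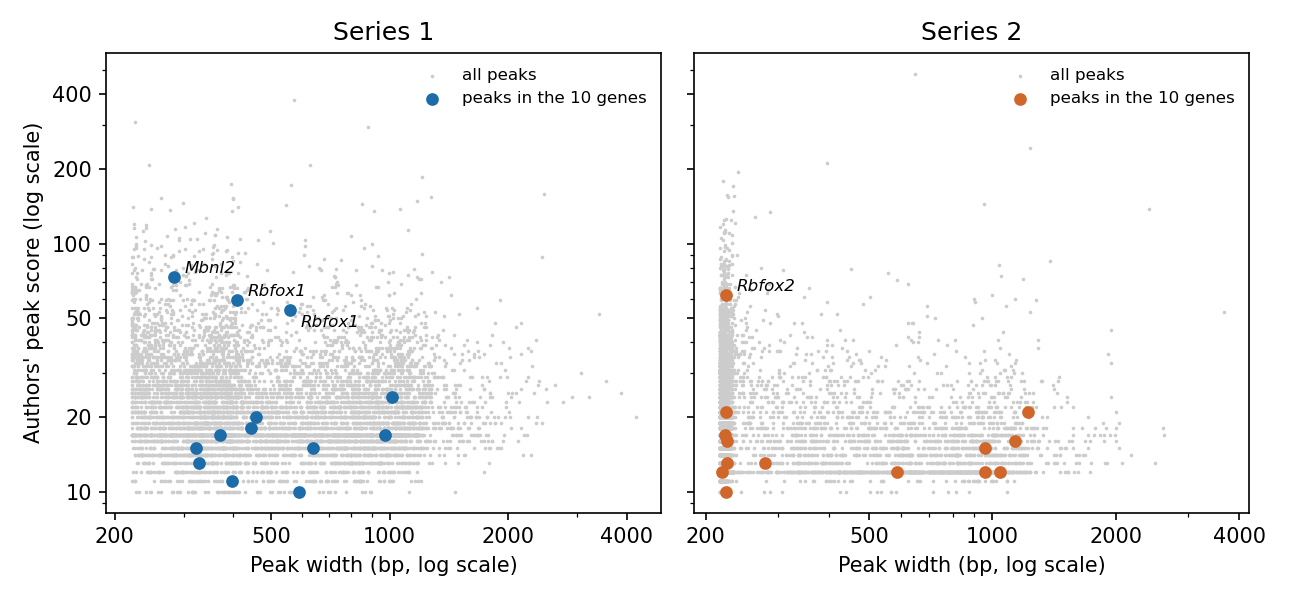
Width (x axis, bp, log scale) and authors' score (y axis, log scale) of all peaks (grey) and of the peaks in the 10 genes (coloured) in series 1 (left) and series 2 (right). The labelled peaks, in Mbnl2 at 73, Rbfox1 at 54 and 59 and Rbfox2 at 62, are those with a score of at least 50.

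Another 24 regulators of tissue-specific or alternative splicing were looked at in the same way. They include the remaining Rbfox, Nova and Celf genes, the Hu protein (Elavl) genes, the STAR family genes Qk and Khdrbs1 to Khdrbs3, and Srrm, Rbm, Msi and Tia genes. Series 1 hit 8 of them, series 2 hit 12, both hit 6 and neither hit 10. Over the 24 genes, 20.1% of genes of like length had a peak in both series on average, against the 6 of 24 seen. The 6 were Tia1, Khdrbs3, Qk, Rbm20, Msi2 and Khdrbs2, and in none of them did the peaks of the lists share a base. Among these 6, Tia1, which encodes a U-rich RNA binder of stress granules, had the highest mean, 0.770% ± 0.00484 (SD, n = 2). It came from 1 peak of 226 bp in series 1 and 1 of 224 bp in series 2. Both were within 9 bp of the narrowest width in their list, 221 and 216 bp. They shared no base, so the small SD does not mean that the lists marked the same place. Rbm20, the regulator of titin splicing in heart, was covered over 0.498% in series 1 and 0.105% in series 2, by a single peak with a score of 12 each time. Higher means came from genes hit in series 1 alone: Elavl1, which encodes the broadly expressed Hu protein HuR, reached 1.86% ± 2.62 (SD, n = 2) from 3 peaks, and Khdrbs1, which encodes the splicing regulator Sam68, 1.10% ± 1.56 (SD, n = 2) from 1 peak. Rbfox3 and Nova2, the neuronal relatives of the genes above, had no peak in either series, and neither had Celf3, Celf5 and Celf6, while Celf4 had 1 in series 2. Of genes of like length, 89.5% had a peak in at least 1 series for Rbfox3 but 41.4% for Nova2. For Celf3, Celf5 and Celf6 these shares were 24.6%, 30.5% and 35.4%.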

How the data were processed

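Per the submitters' processing notes, Bowtie2, SAMtools and MACS2 were used with mm10; the sources used here give neither versions nor settings. Series 1 was called, per the peak names, against 2 input libraries together and series 2 against 1, and peaks were called per ChIP library. The authors deposited for each peak its position and a whole-number score whose meaning is not stated. Peak bases within each of 21887 RefSeq gene spans (GRCm38.p6, same chromosomes as mm10) were counted without a filter on low values. The table gives no exons, so exon or intron is not stated. Genes of like length were those from 0.8 times the span to the span divided by 0.8, and percentiles are shares of such genes or of peaks with a lower value. No difference between conditions was tested, since all ChIP libraries belong to 1 group and each series has 1. Depth is unknown. Members, gene lists, the rule for naming genes (all 10 members, and up to 8 of each other list with a peak in both series, by mean covered share) and alternatives were chosen with earlier results of these data known. Single genes named beyond that rule were chosen after their values were seen. Input libraries were not analysed here. Python 3.11.15, numpy 2.4.6, pandas 2.3.3, scipy 1.17.1 and matplotlib 3.10.9 were used, and the counting of covered bases was tested on simulated peaks.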

Additional observations from a re-analysis of the deposited data

How the results depend on the processing

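When only scores of 20 or more were kept, genes with a peak numbered 3 in series 1, 3 in series 2 and 1 in both, in place of 5, 5 and 3. With a score of at least 50 they numbered 2, 1 and 0. Over all genes, 0.0868% had such a peak in both series. At least 1% of the span in both series was reached by 0 of the 10 genes. Leaving out either library and counting genes in the remaining one gave 5 in each case. The 3 counts did not change when at least 50% of a peak had to lie inside the span, when spans were widened by 5 kb at both ends or when parts shared with other protein-coding genes were left out. Without the narrow series 2 peaks, the series 2 count was 4, as Rbfox2 dropped out, and the count in both remained 3. The mean covered share fell by more than its SD with a score of at least 20 in Mbnl2 (0.0907%), Rbfox1 (0.0541%) and Celf2 (0.0713%). For a gene with a peak in 1 series alone, the SD is larger than the mean, so this rule could not show a fall. Among such genes, Mbnl1 fell from 0.309% to 0 and Esrp1 from 0.534% to 0, while Celf1 and Rbfox2 kept their peaks. No paired analysis was possible because the comparison has a single group with 2 libraries and no second condition. Unknown depth and 2 libraries limit all values.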

Other observations

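Genes with exons known to be chosen by these regulators were also looked at, in 3 lists of epithelial, muscle and neuronal targets with 24 genes in all. Of these, 14 had a peak in series 1, 12 in series 2, 11 in both and 9 in neither, and on average 24.1% of genes of like length had a peak in both. Among the 7 epithelial targets, 5 had a peak in both series. Ctnnd1, which encodes p120 catenin of adherens junctions, carried 4 series 1 peaks over 5.53% of the gene and 2 series 2 peaks over 1.37%. Scrib, a polarity gene, was covered over 2.24% and 4.62%, Fgfr2, a receptor with epithelial and mesenchymal isoforms, over 1.38% and 0.216%, and Cd44 over 0.484% and 0.489%. In Enah and Cd44, as in those genes, the peaks of the lists shared no base. Among the 10 muscle targets 3 and among the 7 neuronal targets 3 had a peak in both series. Kcnma1, a potassium channel gene of 712.8 kb, had 3 and 7 peaks.

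In 3 of the 24 targets, peaks of both lists shared bases, as they did in 324 (1.48%) of all 21887 protein-coding genes and in the medullary markers Krt5 and Itga6. The median span was 17.2 kb over all genes, but 91.9, 29.0 and 198.9 kb for the epithelial, muscle and neuronal targets. The share of genes of like length with shared bases was not computed, so these shares cannot be compared directly. In Insr, the insulin receptor gene whose exon choice is changed in myotonic dystrophy, the series 1 peak chr8:3168701-3169102, with a score of 50, and the series 2 peak chr8:3168707-3168931, with a score of 48, shared 225 bp, and a second pair, with scores of 90 and 16, shared 233 bp. In Agrn, which encodes the synapse organiser agrin, 2 pairs shared 321 and 151 bp, and the gene was covered over 3.08% and 5.53%. In Pkm, the pyruvate kinase gene with mutually exclusive exons, the series 2 peak of 219 bp lay wholly inside the series 1 peak of 563 bp. No difference in shared places between the targets and the 10 regulators was tested, since so few regulator peaks could not show one, and the lists were chosen with earlier results of these data known.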
